A study of Mus musculus with 4 samples.

Results

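The Mv1 microvillar cells are a small group of non-neuronal cells of the mouse main olfactory epithelium. Their members were taken from the deposited cell annotation, as the cells whose final cluster was named Mv1. They numbered 124 of 15859 retained cells. Dissociated cells from the nasal cavity of 4 male C57BL/6 mice, aged 8 weeks and at rest, had been profiled by droplet single-cell RNA-seq, with 1 library per mouse and no treatment, transgene or second group. The remaining retained cells were annotated as microvillar cells Mv2, sustentacular cells (Sus), horizontal basal cells (HBC1, HBC2), globose basal cells (GBC), immediate neuronal precursors (INP), immature neurons (iOSN1, iOSN2) and mature olfactory sensory neurons (mOSN).

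Microvillar cells lie among the sensory neurons and bear short apical microvilli instead of sensory cilia. Some of them resemble the tuft cells of gut and airway, which sense chemicals through a G protein cascade that opens the cation channel Trpm5 and which release acetylcholine, eicosanoids and the cytokine interleukin-25. Others resemble ionocytes, which express the transcription factors Foxi1 and Ascl3, the chloride channel Cftr and the proton pump V-ATPase, and which move ions across an epithelium.

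The Mv1 cells numbered 54, 26, 20 and 24 in mice 1 to 4. Their share of retained cells was 1.20% (exact 95% binomial interval 0.906 to 1.57) in mouse 1, 0.700% (0.458 to 1.02) in mouse 2, 0.665% (0.407 to 1.03) in mouse 3 and 0.515% (0.330 to 0.766) in mouse 4, with a mean of 0.771% ± 0.300 (SD, n = 4). Mouse 1 had the highest share, and its interval overlapped those of mice 2 and 3 but not that of mouse 4. Mv2 cells were more numerous, at 1768 cells and 11.3% ± 1.33 (SD, n = 4). The intervals cover counting error only.

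The depth behind the Mv1 values was 206270, 110512, 120513 and 84314 UMIs in mice 1 to 4. A UMI is a unique molecular identifier, which lets amplified copies of 1 captured transcript be counted once. The median Mv1 cell held 3317, 3194.5, 4709 and 2900.5 UMIs in mice 1 to 4, against 6281, 3563, 6311 and 4135.5 in Mv2 cells. The Mv1 median was the lower one in 4 of 4 mice, at 0.706 times the Mv2 value on average (log2 ratio -0.50 ± 0.32, SD, n = 4; exact two-sided sign-flip test, p = 0.125, adjusted p = 0.188 over 12 comparisons of depth, genes and mitochondrial share), and 0.125 is the smallest p that 4 mice allow. Detected genes per cell averaged 1801 ± 232.3 in Mv1 and 2401 ± 457 in Mv2 cells (SD, n = 4). Of the 124 cells, 1 carried a barcode sequence that also occurred in another library. Gene levels below are UMIs per 10000 UMIs of all Mv1 cells of a mouse summed, so that mice and not cells are the replicates.

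Of 4 marker genes considered for the group, which are not part of its annotation, Trpm5 fitted the Mv1 cells and Ascl3, Foxi1 and Cftr did not. Trpm5, which encodes the cation channel at the end of the chemosensory cascade (GRCm38 chr7:143069153-143094642, minus strand), stood at 7.13, 5.16, 6.06 and 5.69 UMIs per 10000 in Mv1 cells of mice 1 to 4. The Mv2 level of Trpm5 was at or near 0 in every mouse, from 1 Mv2 cell with 2 UMIs. Ascl3 (chr7:109727465-109731726, minus strand) showed the opposite, with 0.05, 0.18, 2.57 and 0.12 in Mv1 and a mean of 19.5 ± 2.20 (SD, n = 4) in Mv2 cells. Foxi1 (chr11:34204338-34208089, minus strand) averaged 0.294 ± 0.475 in Mv1 and 7.60 ± 0.760 in Mv2 cells, and Cftr (chr6:18170687-18322768, plus strand) averaged 0.315 ± 0.567 and 7.39 ± 0.711 (SD, n = 4). Of these 4 genes only Trpm5 therefore marked the group. The name Mv1, which states no marker gene, is kept here as the annotation gives it.

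At the level of single cells the same split was seen. A Trpm5 UMI was found in 104 of 124 Mv1 cells and in 1 of 1768 Mv2 cells. The share was 92.6%, 88.5%, 80.0% and 62.5% of Mv1 cells in mice 1 to 4, with a mean of 80.9% ± 13.3 (SD, n = 4). It was lowest in mouse 4, whose Mv1 cells were shallowest, and next lowest in mouse 3, whose Mv1 cells were deepest. The part of depth in these shares was not tested. In mature neurons, 0.209% of 10519 cells had a Trpm5 UMI, at a median of 4861 UMIs per cell against 3353 in Mv1. The highest share outside Mv1 was 4.46% in GBC, at a median of 9945.5 UMIs per cell. When each cell was thinned to 1500 UMIs, 79 of 124 Mv1 cells and 0 of 1764 Mv2 cells kept one, with 0 Mv1 and 4 Mv2 cells left out as too shallow. A UMI of Ascl3, Foxi1 or Cftr was found in 10 Mv1 cells (8.06%) and in 1768 of 1768 Mv2 cells. After thinning it was found in 5 of 124 (4.03%) and 1741 of 1764, beside 0.200% of mature neurons. The thinned share was 21.3% in GBC, 8.33% in Sus, 2.86% in HBC1 and 2.21% in HBC2, and 1.41% or less in INP, iOSN1 and iOSN2. The Mv1 share thus lay within the range of the types other than Mv2. Of those 10 Mv1 cells, 9 also held Trpm5.

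**Figure D1:**
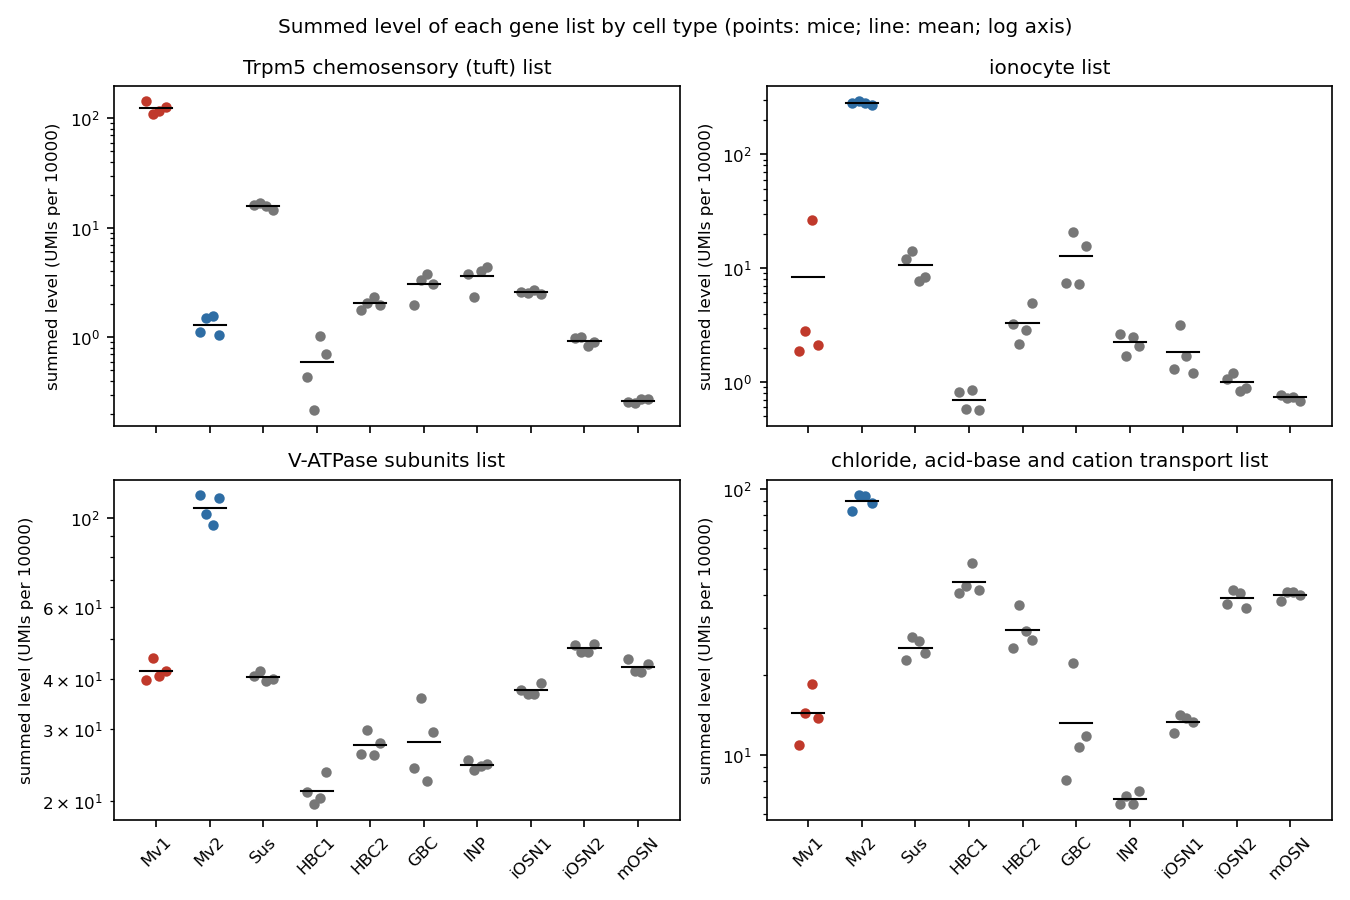
Summed level of the genes of each list (vertical log axes, UMIs per 10000) in the 10 retained cell types (horizontal axis); points are the 4 mice and lines their means. Mv1 holds the highest chemosensory sums, 109 to 142, and Mv2 the highest ionocyte, V-ATPase and transport sums.

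Gene lists gave the same division. The list of Trpm5 chemosensory (tuft) genes held 25 members and summed to 142.3, 109, 116 and 126 UMIs per 10000 in Mv1 cells of mice 1 to 4, against 1.06 to 1.56 in Mv2 cells. The list of 17 ionocyte genes summed to 1.89, 2.81, 26.8 and 2.13 in Mv1 and 270.1 to 292 in Mv2 cells. Mouse 3 stood apart from the other mice in the ionocyte sum, and even its value lay far below every Mv2 value. The plot of summed levels by cell type shows both lists. Sustentacular cells had the next highest chemosensory sum, 15.7 ± 0.974 (SD, n = 4), of which Dclk1 alone made up 14.2.

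The ionocyte signal of mouse 3 lay in a few cells. Of the 411 ionocyte list UMIs over all Mv1 cells, 324 were in 3 cells, and the median Mv1 cell had 0. A mouse 3 cell with 13540 UMIs held 215 ionocyte list UMIs, 128 of them Coch and 17 Ascl3, together with 76 chemosensory UMIs and 5 of Trpm5. Another mouse 3 cell held 89 ionocyte list UMIs beside 107 chemosensory ones. The preliminary clustering of the authors had put both of these cells in its Mv2 cluster. A mouse 2 cell, placed among GBC at that stage, held 20 ionocyte list UMIs beside 104 chemosensory ones.

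Transcripts of mature neurons were likewise concentrated. Of 553 UMIs of the 8 mature neuron genes, 502 were in 6 Mv1 cells, 4 of them from mouse 2. Omp, the classical mature neuron marker, therefore averaged 4.37 ± 5.59 over all Mv1 cells and 0.505 ± 0.219 without the 9 cells that held 10 or more UMIs of either list (SD, n = 4). Without those 9 cells, a choice made after their values were seen, Ascl3 averaged 0.0456 ± 0.0620, Coch 0.0328 ± 0.0656 and Trpm5 6.75 ± 0.819. They held 43.0% of the Mv1 UMIs of mouse 2, among them a cell of 21748 UMIs first placed with developing neurons, 17.3% in mouse 3 and 5.55% and 9.59% in mice 1 and 4. The 4-mouse means of the 109 genes described next were 0.909 to 1.28 times as high without these cells. Mouse 2 alone moved more, from 5.16 to 7.46 for Trpm5, from 14.2 to 22.4 for Alox5ap and from 31.0 to 45.1 for Lrmp. Values of single mice and SDs below include these cells unless stated. Of the 9 cells, 3 were in the 4% of barcodes with the highest Scrublet score, a score for 2 cells in 1 droplet. The part of such droplets in these values was not tested.

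**Figure D2:**
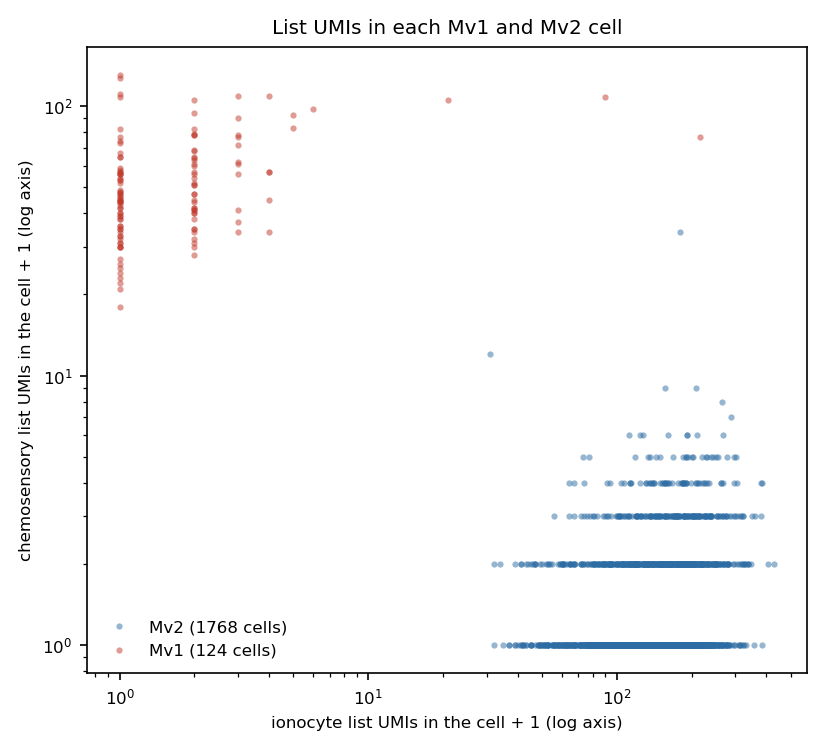
Each point is a cell, with ionocyte list UMIs plus 1 on the horizontal axis and chemosensory list UMIs plus 1 on the vertical axis (both log). The chemosensory count was the larger one in all but 1 Mv1 cell and in 0 of 1768 Mv2 cells.

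The chemosensory count was present throughout the group. It ranged from 17 to 129 UMIs per Mv1 cell, with a median of 46. The 20 Mv1 cells without a Trpm5 UMI still held 17 or more, with a median of 36, and had a median of 2825.5 UMIs in all against 3488 in the cells with Trpm5. In Mv2 cells the median was 0 and the highest value 33. The plot of list UMIs by cell shows that the cells of both types lie apart, with 1 Mv1 cell (the mouse 3 cell with 215 ionocyte list UMIs) having the larger count on the ionocyte side. A comparison of ionocyte-gated with Trpm5-gated Mv1 cells could not be run, since 1 Mv1 cell held a UMI of Ascl3, Foxi1 or Cftr and none of Trpm5.

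Across genes, 109 of 7113 (1.53%) had an Mv1 mean at least 4 times that of every other retained type together with the highest level in Mv1 in each of the 4 mice. The 7113 genes were those with at least 30 UMIs in Mv1 cells or at least 0.5 UMIs per 10000 in another type. Because the clusters had been built from these same genes, the counts describe the group and no test was made. No leukocyte type was among the other types, since the authors had removed the immune clusters. Of the 25 chemosensory list genes 22 could be assessed and 21 were among the 109. Of the 17 ionocyte genes 16 could be assessed and 0 were, a count that in a list of this size lies near the 1.53% of all genes. The median log2 ratio to the highest other type was 5.56 over the chemosensory genes and -4.72 over the ionocyte genes, beside -1.07 over all 7113 genes. The lists were chosen with earlier results of these data known. Just inside the limit lay Ero1lb and Sct at 4.00 and 4.01 times, and just outside it Mansc1 at 3.97 and Ostf1 at 3.95 times.

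**Figure D3:**
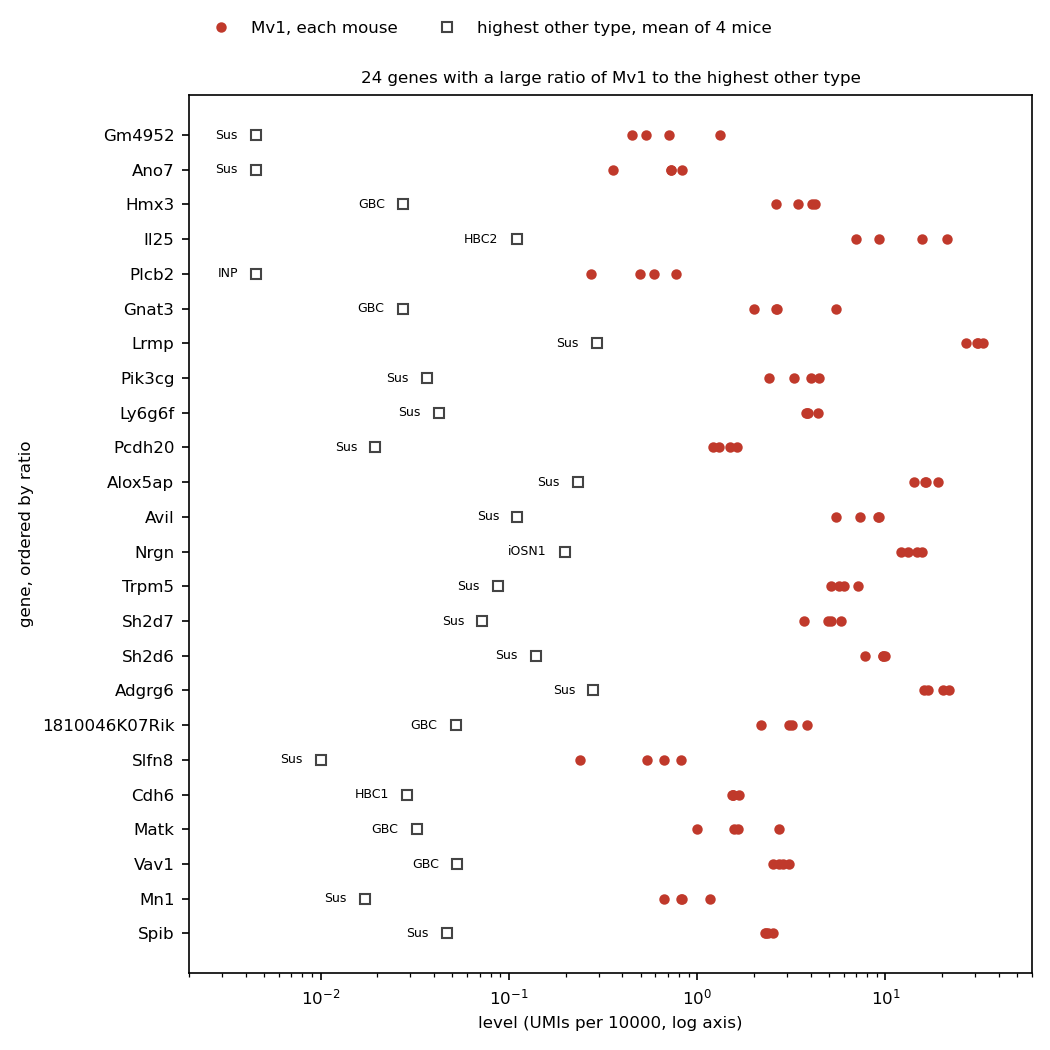
The 24 genes plotted are those of the 25 with the largest ratio of the Mv1 mean to the mean of the highest other type that are reported here, in that order from the top; the horizontal log axis gives UMIs per 10000. Filled points are the 4 mice in Mv1 cells and open squares the mean of the named other type; every Mv1 point lies to the right of its square.

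Genes of the chemosensory cascade formed one group among the 109. Gnat3 encodes gustducin, the taste G protein alpha subunit (chr5:17962549-18019834, plus strand), and stood at 2.62, 1.99, 2.66 and 5.46 UMIs per 10000 in mice 1 to 4, with a mean 117 times that of GBC, the next type. Plcb2, the phospholipase that follows it in the cascade, averaged 0.535 ± 0.210 (SD, n = 4), against 1 UMI in all INP cells (pooled ratio 128, exact 95% counting interval 21.3 to 5232). Trpm5 was 68.9 times the level of the next type, Sus. Avil, which encodes the actin-bundling protein advillin of tuft cells (chr10:127000709-127020994, plus strand), stood at 7.32, 5.43, 9.29 and 9.13, which was 70.3 times the Sus mean. In each mouse these genes were higher in Mv1 than in every other type, as the rule that chose them requires.

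Other parts of the cascade were shared with other cells or near the limit of detection. Gng13, a G protein gamma subunit of taste cells and olfactory neurons, had a UMI in 122 Mv1 cells and a mean of 24.6 ± 4.13, below the 89.7 of mature neurons and above the 0.787 of Mv2 (SD, n = 4). Gnb3, the beta subunit of taste cells, had a UMI in 3 Mv1 cells, while Gnb1 had one in 81. The calcium release channels differed between the microvillar groups. Itpr2 averaged 1.83 ± 0.427 in Mv1 and 0.932 ± 0.244 in Mv2 cells, and Itpr3 averaged 0.142 ± 0.0464 and 2.36 ± 0.388 (SD, n = 4). Taste receptors were barely seen: 4 of 35 Tas2r genes, the bitter receptors, had 5 UMIs in all, and Tas1r3 had 2. Gng13, Gnb1 and the receptor families were chosen after their values were seen.

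Transcription factors made up another group. Pou2f3, the POU factor on which tuft cells depend, stood at 1.89, 1.09, 1.16 and 1.78 UMIs per 10000 in mice 1 to 4 and was 14.5 times the next type, GBC. The homeobox genes Hmx3 and Hmx2 averaged 3.59 ± 0.725 and 4.76 ± 0.899, at 131 and 47.1 times the GBC mean (SD, n = 4). Spib, an ETS factor, and Gfi1b, a zinc finger repressor, averaged 2.38 ± 0.111 and 1.19 ± 0.318, at 51.0 times the Sus mean and 8.68 times the GBC mean. Each of these 5 genes was higher in Mv1 than in every other type in 4 of 4 mice, as the rule that chose them requires. Sox9, often used as a mark of Bowman's gland and duct cells, had UMIs in 114 Mv1 cells and averaged 10.3 ± 2.34, against 5.83 in Sus and 0.0756 in Mv2 cells. Other gland markers were low, with Sox10 at 2 UMIs, Aqp5 at 2 and Muc5b at 0 in all Mv1 cells.

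A further gene of the 25 belongs beside Pou2f3. 1810046K07Rik (Pou2af2), which encodes a coactivator of Pou2f3, stood at 3.83, 2.17, 3.07 and 3.20 UMIs per 10000, 58.8 times GBC. POU factors of this family bind the octamer ATGCAAAT. The sequences below are the 250 bases before the annotated start of 4 genes of the 109, from RefSeq on GRCm38.p6, 5′ to 3′ on the strand of the gene, with octamers on either strand in capitals. They are shown because the genes share high levels in Mv1 while their promoters differ in this motif. They lie at chr9:51328919-51329168 (1810046K07Rik, minus strand), chr1:93373646-93373895 (Ano7, plus strand), chr6:65144731-65144980 (Hpgds, minus strand) and chr7:143094643-143094892 (Trpm5, minus strand).
1810046K07Rik: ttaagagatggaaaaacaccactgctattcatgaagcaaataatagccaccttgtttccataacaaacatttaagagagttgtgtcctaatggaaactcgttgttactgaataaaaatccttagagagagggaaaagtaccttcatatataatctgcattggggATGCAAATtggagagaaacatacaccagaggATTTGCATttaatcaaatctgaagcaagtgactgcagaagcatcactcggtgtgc
Ano7: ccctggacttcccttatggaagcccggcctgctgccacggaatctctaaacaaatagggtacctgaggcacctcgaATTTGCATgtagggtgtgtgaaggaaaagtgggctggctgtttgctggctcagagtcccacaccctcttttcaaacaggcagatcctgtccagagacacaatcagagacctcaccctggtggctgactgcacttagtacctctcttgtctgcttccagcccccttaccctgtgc
Hpgds: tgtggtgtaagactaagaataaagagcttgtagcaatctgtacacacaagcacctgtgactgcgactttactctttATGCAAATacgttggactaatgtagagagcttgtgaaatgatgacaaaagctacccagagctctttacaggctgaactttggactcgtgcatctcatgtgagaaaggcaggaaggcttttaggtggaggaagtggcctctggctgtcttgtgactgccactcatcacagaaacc
Trpm5: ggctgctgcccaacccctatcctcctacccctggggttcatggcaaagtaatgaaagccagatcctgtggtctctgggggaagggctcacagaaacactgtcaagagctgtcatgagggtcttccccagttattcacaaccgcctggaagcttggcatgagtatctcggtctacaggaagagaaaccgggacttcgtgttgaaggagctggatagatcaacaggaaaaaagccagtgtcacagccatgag
The 1810046K07Rik promoter held 2 octamers, those of Ano7 and Hpgds 1 each and that of Trpm5 0. The octamer, ATGCAAAT or its reverse complement ATTTGCAT, was found in 6 of 110 promoters (5.45%) of 85 of the 109 genes, and in 526 of all 32851 promoters of this length (1.60%). The other genes with a match were Art5, Il4ra and Ly6g6d. The symbols of 85 of the 109 genes were matched in the promoter table. These are matches of letters and not sites shown to be bound.

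Among the 109 were 6 genes for enzymes or partners of eicosanoid synthesis, which makes lipid mediators from arachidonic acid. Pla2g4a, the phospholipase that releases arachidonic acid, averaged 3.45 ± 0.373 and was 26.4 times the next type, HBC2 (SD, n = 4). Of the leukotriene branch, Alox5ap, which presents arachidonic acid to the lipoxygenase, stood at 19.0, 14.2, 16.4 and 16.1 UMIs per 10000 in mice 1 to 4, 70.8 times the Sus mean. The lipoxygenase Alox5 averaged 5.42 ± 1.28 and the leukotriene synthase Ltc4s 10.8 ± 2.20, at 20.2 and 39.9 times the GBC mean. Of the prostaglandin branch, the cyclooxygenase Ptgs1 averaged 9.94 ± 1.22 and the prostaglandin D synthase Hpgds 1.74 ± 0.735, at 12.2 and 4.13 times the HBC2 mean. No list of the whole pathway was assessed. Leukocytes were not among the types compared.

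Signalling molecules and their receptors followed. Il25 (chr14:54932695-54935837, plus strand), the cytokine by which gut tuft cells call on innate lymphoid cells, stood at 21.2, 6.97, 9.21 and 15.7 UMIs per 10000 in mice 1 to 4, 121 times the HBC2 mean. That HBC2 mean came from 2 of 544 cells, and 1 of them held 44 of the 52 Il25 UMIs. Its mice differed about 3-fold. They lay above every other type in each mouse, as the rule that chose the gene requires. Without the 9 cells rich in ionocyte or neuron UMIs, mouse 2 was at 11.6 and mouse 3, at 7.43, was the lowest. Il17rb, a subunit of its receptor, averaged 1.66 ± 0.770 at 25.8 times GBC, and the receptor chains Il4ra and Il13ra1, through which interleukin-4 and interleukin-13 act, averaged 0.741 ± 0.213 and 2.99 ± 0.556, at 4.87 times HBC1 and HBC2. Chat, which makes acetylcholine, averaged 1.68 ± 0.409 with UMIs in 58 cells, 47.1 times Sus. Other genes of acetylcholine handling that were looked up were at 0 or 1 UMI in all Mv1 cells: Slc5a7, the choline transporter, had 0 UMIs, Slc18a3, the vesicular transporter, had 1, and Ache, which breaks acetylcholine down, had 0. Il4ra, Il13ra1 and these last 3 genes were chosen after their values were seen.

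Several of the 25 leading genes are best known from leukocytes. The ratios given here do not compare Mv1 with leukocytes, since immune clusters were not among the retained types. Pik3cg, the gamma catalytic subunit of phosphoinositide 3-kinase, stood at 4.41, 3.26, 2.41 and 4.03 UMIs per 10000 in mice 1 to 4 and was 96.3 times the Sus mean. Vav1, a guanine nucleotide exchange factor, averaged 2.80 ± 0.226, 52.7 times GBC (SD, n = 4). Matk, a kinase that inhibits Src kinases, averaged 1.74 ± 0.722, 53.7 times GBC. The SH2 domain genes Sh2d6 and Sh2d7, both on the chemosensory list, averaged 9.30 ± 1.02 and 4.91 ± 0.877, at 66.9 and 68.0 times Sus (SD, n = 4).

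Most of the 7 immune list genes were at few UMIs in the same cells, and Ptprc and Cd74 were exceptions. Outside that list, the B cell receptor gene Cd79b was among the 109 and averaged 1.64 ± 0.486 (SD, n = 4). In all 124 Mv1 cells, Tyrobp and Ctss had 0 UMIs, C1qa and Cd52 had 2 each, Lyz2 had 7 and Cd74 had 33, of which 25 were in 1 cell. Ptprc, the common leukocyte antigen, had 23 UMIs in 11 cells and averaged 0.491 ± 0.302 (SD, n = 4). The immune list of 7 genes summed to between 0.356 and 1.72 UMIs per 10000 in the 4 mice, and to 3.02 in mouse 2 without the 9 cells rich in ionocyte or neuron UMIs. The part of leukocyte RNA in the levels of Vav1 and Pik3cg was not tested.

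The other leading genes are of mixed roles. Lrmp, an endoplasmic reticulum protein also found in taste cells, had UMIs in 122 of 124 cells and stood at 26.7, 31.0, 30.5 and 32.9 UMIs per 10000 in mice 1 to 4, 103 times Sus. Adgrg6, an adhesion G protein-coupled receptor, averaged 18.7 ± 2.79, and Nrgn, the calmodulin-binding neurogranin, 13.9 ± 1.53, at 66.6 times Sus and 69.7 times iOSN1. The cadherins Cdh6 and Pcdh20 averaged 1.57 ± 0.0581 and 1.41 ± 0.187 (SD, n = 4). The remaining genes of the 25 included Gm4952, Ano7, Ly6g6f, Slfn8 and Mn1, with ratios from 51.1 (Mn1) to 167 (Gm4952). For Gm4952, Ano7, Plcb2, Slfn8 and Cdh6 the next type had 1 to 3 UMIs in all. For Gm4952 the pooled ratio was 159 with an exact 95% counting interval of 26.8 to 6433.

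Of the chemosensory list, Dclk1 was the assessed gene that was not highest in Mv1. Dclk1, a kinase used as a tuft cell marker in gut, averaged 0.516 ± 0.153 in Mv1, 0.606 ± 0.173 in Mv2 and 14.2 in Sus. Gnb3, Ovol3 and Tas1r3 were too low to be assessed, with 9, 2 and 2 UMIs.

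The summed levels of ion transport genes were lower in Mv1 than in Mv2 cells. The 25 V-ATPase genes summed to 39.6 to 44.9 UMIs per 10000 over the 4 mice in Mv1 and 95.9 to 113 in Mv2, so that the groups did not overlap. Apart from Mv2, the other types had means from 21.1 in HBC1 to 47.5 in iOSN2, a range that holds the Mv1 mean of 41.8. Of 22 assessed V-ATPase genes 16 had the higher mean in Mv2, beside 3451 of all 7113 assessed genes (48.5%), and 0 were among the 109, where 1.53% of all genes were. The general subunits Atp6v0c and Atp6v0b averaged 7.25 ± 0.765 and 6.41 ± 0.510 in Mv1 and 26.4 ± 3.49 and 18.3 ± 1.85 in Mv2 cells. Atp6v1f (5.0 ± 0.871 and 4.82 ± 0.515) differed by less than the spread between mice, and Atp6v0d2, a subunit with restricted expression, had 2 UMIs in Mv1 and a mean of 3.84 in Mv2 (SD, n = 4).

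The list of 28 chloride, acid-base and cation transport genes gave 11.0 to 18.6 in Mv1 and 82.8 to 94.7 in Mv2, again without overlap. The remaining types had means from 6.87 in INP to 44.6 in HBC1, around the Mv1 mean of 14.4. Of 19 assessed genes 16 had the higher mean in Mv2, beside the same 48.5% of all genes, and 0 were among the 109. In lists of this size a count of 0 lies near the 1.53% of all genes, and the same holds for the Notch pathway (8 of 12 assessed), calcium release and purine (7 of 12), gland (4 of 6), blood (4 of 4) and respiratory ciliated genes (4 of 5), also at 0. Slc12a2, which loads chloride into secretory cells, averaged 1.61 ± 0.665 in Mv1 and 16.4 ± 1.74 in Mv2. The sodium pump subunit Atp1b1 averaged 3.36 ± 1.23 in Mv1, or 1.80 ± 0.759 without the 9 cells rich in ionocyte or neuron UMIs, and 23.3 ± 0.740 in Mv2. The epithelial sodium channel gene Scnn1a averaged 0.348 ± 0.244 and 5.75 ± 0.428, while Slc4a2, an anion exchanger, was the higher one in Mv1, at 0.616 ± 0.0729 against 0.298 ± 0.0381 (SD, n = 4). Clcn3 and Slc9a3r1 averaged 1.12 ± 0.330 and 1.63 ± 0.376 in Mv1, against 1.25 ± 0.0970 and 2.25 ± 0.0792 in Mv2.

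Levels lower in Mv1 than in the other non-neuronal types were also looked for across all genes. Among 132 genes with at least 5 UMIs per 10000 in each of Mv2, Sus, HBC1 and HBC2, the 10 lowest in Mv1 relative to the mean of those types included Gstm1, Mt1, Atp1b1, Pgrmc1, Prdx1, Jun, Cd9, Tmsb10 and Rps12. Gstm1, a glutathione transferase of detoxification, averaged 1.82 ± 0.809 in Mv1 against 26.7 over the other types, a ratio of 14.7. That mean was carried by HBC1 and HBC2, at 47.7 and 43.5, while Mv2 was at 5.60, a ratio of 3.07. Outside those types, GBC was at 1.16, below Mv1. Mt1, a metallothionein, averaged 7.48 ± 0.889 against 36.6, with Sus at 87.4 and Mv2 at 11.9. The antioxidant enzyme Prdx1 averaged 5.27 ± 0.270 against 12.2, although Mv2 itself was at 5.05 (SD, n = 4). The ratio for Rps12, the tenth gene, was 1.78, although its Mv1 mean of 17.7 was above the 14.3 of Mv2.

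Markers of basal and sustentacular cells were mostly at low levels in Mv1 cells, while the 6 gland genes summed to 8.78 to 14.4 over the mice through Sox9, against 8.19 to 10.6 in HBC1 and 27.9 to 42.1 in Sus cells. Of the 5 horizontal basal genes, Krt14, Krt15 and Trp63 were at 0 UMIs, Krt5 at 1 and Icam1 at 3. Of the globose basal and precursor genes, Mki67, Neurod1 and Neurog1 were at 0 and Kit, shared with Mv2, averaged 0.994 ± 0.282. The 7 sustentacular genes summed to 1.36 ± 0.561, with Cyp2g1 at 10 UMIs in all Mv1 cells against a Sus mean of 71.4. The immature neuron list summed to 6.42 ± 6.07, highest in mouse 2, where Stmn1 was at 9.05. Without the 9 cells rich in ionocyte or neuron UMIs the list summed to 2.64 ± 0.565 and Stmn1 in mouse 2 was at 1.11 (SD, n = 4).

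Within the group, Il25 varied widely among cells. Its UMIs were found in 84 of 124 cells, up to 86 in 1 cell, and the 10 highest cells held 46.2% of its 758 UMIs. Its dispersion index, the squared deviation from the count expected at each cell's depth relative to that count, was 27.3, whereas that of Nrgn was 9.0, Lrmp 5.95, Rgs13 4.25, Gnat3 3.67 and Trpm5 1.90. Cells with and without an Il25 UMI had medians of 3353 and 3320 UMIs. The other chemosensory genes (without Il25 and Gnat3) were at 101.2 ± 12.5 UMIs per 10000 in the cells with Il25 and 119 ± 16.2 in those without (SD, n = 4 mice). They were lower in the cells with Il25 in mice 1 to 3 and higher in mouse 4, at 107 against 98.5. These sums include the cells rich in ionocyte or neuron UMIs, among them the mouse 2 cell of 21748 UMIs, which held Il25. The contrast was not made without those cells. Il25 and Gnat3 were both found in 45 cells, Il25 alone in 39, Gnat3 alone in 19 and neither in 21. The median was 5.5 UMIs of Il25 and 2 of Gnat3 in the cells that had them, so that absence of Gnat3 in a single cell cannot be told from missed capture.

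The barcodes that the authors removed before the final annotation were examined next. They took no part in the final clusters, but they come from the same 4 libraries. Of 5950 removed barcodes, 52 held a Trpm5 UMI and none of Ascl3, Foxi1 or Cftr, with 13, 17, 14 and 8 in mice 1 to 4. Another 2 held both kinds. Of the 52, 21 had been placed in preliminary immune clusters, 18 in the preliminary Mv1 cluster, 9 in clusters of high mitochondrial share and 4 elsewhere. The preliminary Mv1 cluster had held 189 barcodes, of which 119 became Mv1 cells, 12 became GBC and 58 were removed, 57 of these with under 1000 detected genes.

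**Figure D4:**
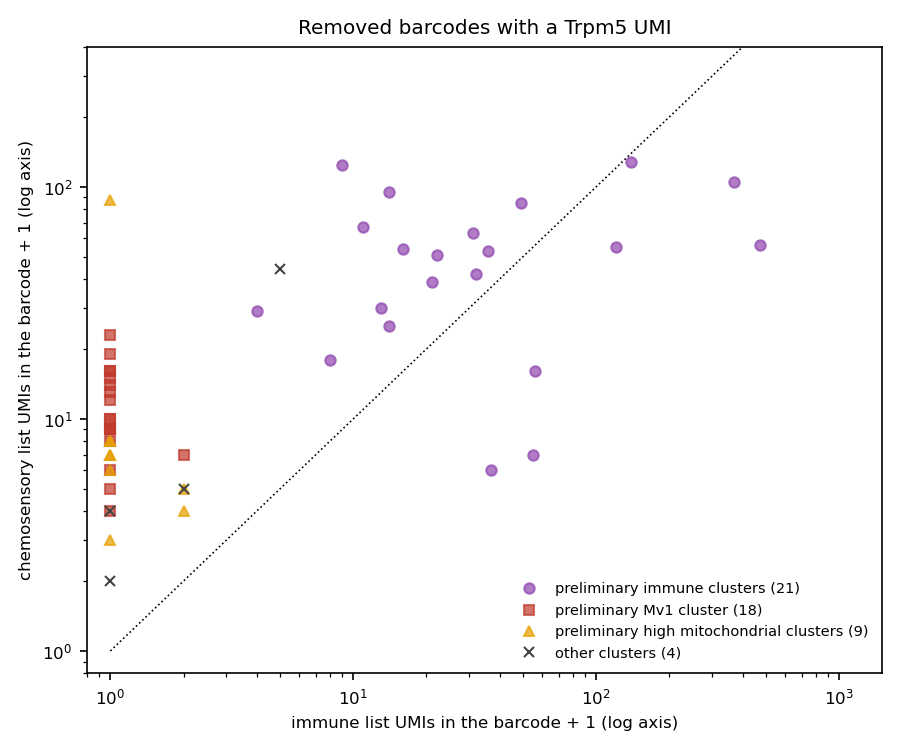
Removed barcodes with a Trpm5 UMI and none of Ascl3, Foxi1 or Cftr, with immune list UMIs plus 1 on the horizontal and chemosensory list UMIs plus 1 on the vertical axis (both log); the dotted line marks equal counts. The chemosensory count includes the Trpm5 UMI. Of the 21 barcodes from preliminary immune clusters, 14 lie above the line.

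Among the 21 barcodes from immune clusters, chemosensory list UMIs ranged from 5 to 127 with a median of 52, and immune list UMIs had a median of 30. The chemosensory count was the larger one in 14 of them. All 2391 removed barcodes of those clusters had a median of 1 chemosensory and 27 immune UMIs. The 18 barcodes of the preliminary Mv1 cluster were shallow, with a median of 901 UMIs, and held 3 to 22 chemosensory UMIs. The plot of immune against chemosensory UMIs shows both sets. Whether such a barcode held 1 cell or several was not tested.

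Summed by mouse, these 52 barcodes were compared with the 5158 removed barcodes that held none of the 4 genes, by edgeR's quasi-likelihood test with the mouse as a block. This gate was chosen after the Mv1 levels were seen. Of 9727 genes tested, 271 (2.79%) were higher and 440 (4.52%) lower at an adjusted p below 0.05. DESeq2 tested 13313 genes on the same sums and gave 375 higher and 134 lower. Of the 25 chemosensory genes, Trpm5 was the gate and 4 did not pass the filter on low counts. Of the 20 tested, 18 rose and 0 fell, with a median log2 fold change of 4.55 beside -0.34 over all genes tested. The filter can keep a gene through the gated sums alone, so that this count is a description. Without the filter, 17 of 24 were higher and 0 lower, beside 264 higher and 587 lower of all 24898 genes.

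**Figure D5:**
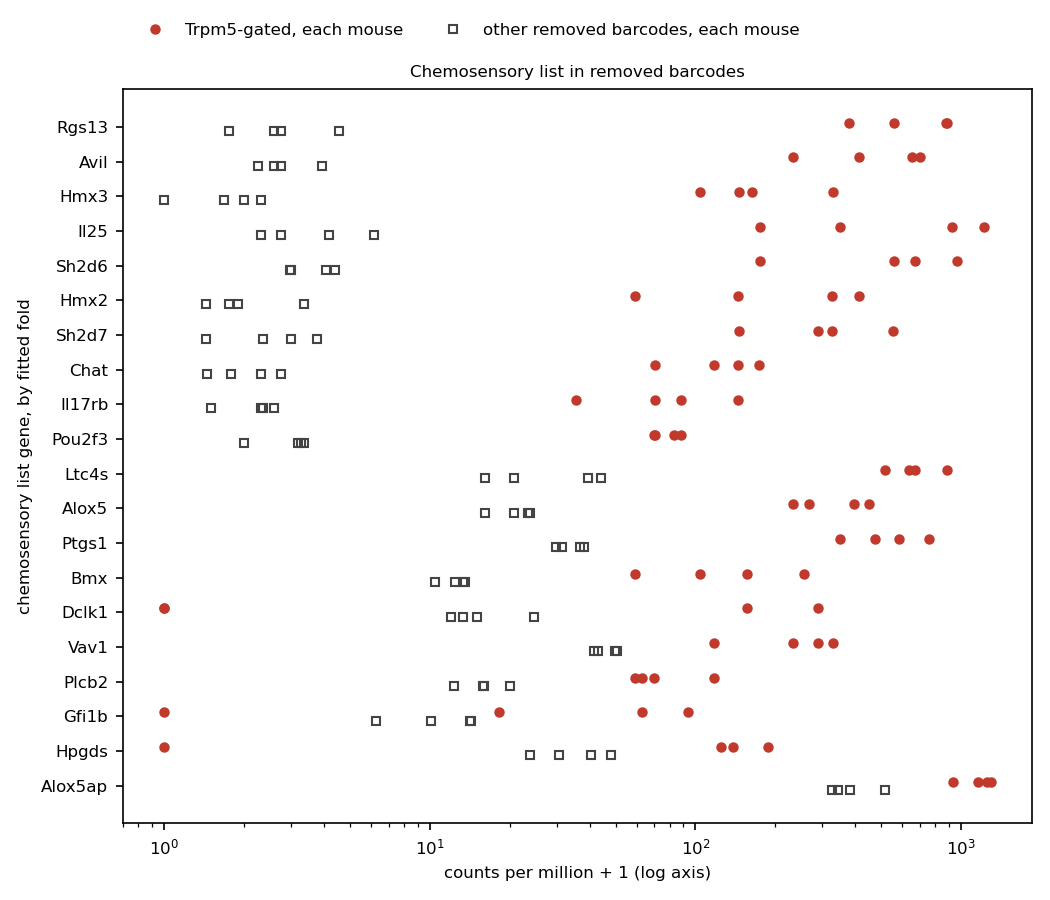
The 20 tested chemosensory genes in CPM plus 1 (horizontal log axis), ordered from the top by fitted fold. Filled points are the Trpm5-gated and open squares the other removed barcodes of each mouse; the groups do not overlap except for Dclk1, Gfi1b and Hpgds, where some gated sums are at 0.

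By gene, Rgs13, a regulator of G protein signalling, was at 883, 556, 878 and 377 CPM (UMIs scaled to a common library total) in the gated barcodes of mice 1 to 4 and at 0.75 to 3.55 in the others. The fitted log2 fold change was 8.04 (SE 0.450). Avil was at 697, 412, 654 and 232 against 1.26 to 2.93, a log2 fold change of 7.52 (SE 0.461). Il25 was at 348, 926, 1222 and 174 against 1.32 to 5.19, a log2 fold change of 7.34 (SE 0.456). In these genes the sum of the gated barcodes of every mouse lay above all sums of the other barcodes, which says nothing of single barcodes. Since the sums in the other barcodes were small, these values too are given as a description. The other genes with the 10 smallest p-values upward were Adgrg6, Sh2d6, Sh2d7, Ly6g6f, Sox9, Fxyd6 and Espn, with log2 fold changes from 4.90 (Sox9) to 9.40 (Ly6g6f). Gfi1b and Hpgds did not pass, at log2 fold changes of 1.65 (SE 0.758) and 1.34 (SE 0.493). Dclk1 passed with 0 UMIs in the gated barcodes of mice 1 and 4, and lost its call without mouse 2 or mouse 3. Alox5ap lost its call without the same mice, and Plcb2 without mouse 1, 2 or 3.

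Immune genes were tested in the same fit. Of 7 genes, 5 were lower in the gated barcodes and 0 higher, and Lyz2 and Ptprc did not pass. Blood genes (4 of 4) and 6 of 8 mature neuron genes were lower too, beside 4.52% of all genes tested. Of the removed barcodes, 2391 came from immune, 314 from blood and 708 from mature neuron clusters, so that these counts are a description. The immune count was 3 without mouse 1 or mouse 3, without the block and with DESeq2 or its size factors. It was 0 of 1 tested without the immune clusters. Of the 17 ionocyte genes 3 were tested and Coch was lower, a call that was lost without mouse 2, mouse 3 or mouse 4, without the block, with DESeq2, without the top 4% of Scrublet scores and among barcodes with at least 1000 genes. Without mouse 4, 2 of 5 tested ionocyte genes were higher, beside 354 of all 9941. Among barcodes with at least 1000 genes 1 of 3 was, beside 286 of all 8527. With the immune clusters left out on both sides, 70 of 4598 tested genes rose in place of 271 of 9727. Among them were 8 of 9 tested chemosensory genes. With the preliminary Mv1 cluster left out, 17 of 20 tested chemosensory genes rose, beside 187 of all 9628 genes.

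The same comparison was made for the 738 removed barcodes with a UMI of Ascl3, Foxi1 or Cftr and none of Trpm5, against the same 5158 barcodes, so that both comparisons share their controls. Of 11038 genes tested, 2163 (19.6%) were higher and 2574 (23.3%) lower. Of the ionocyte list, 12 of 12 tested genes were higher, with a median log2 fold change of 6.12, beside -0.04 over all genes. Without the filter 14 of 14 were higher, beside 2304 of all 25414 genes. Several of them had few UMIs in the other barcodes and could pass the filter through the gated sums, so that this count is a description too. Of the chemosensory list, 9 were tested, of which Dclk1 rose and 8 fell, among them Ltc4s, Ptgs1 and Plcb2. The genes that fell could pass the filter through the other barcodes, where Alox5ap had 962 to 1445 UMIs against 7 to 64 in the gated ones. Others such as Avil, Rgs13 and Il25 were not tested, so that this count is a description too. The count of 8 was 6 to 9 without each mouse in turn and 5 without the top 4% of Scrublet scores. The higher count of 1 became 3 without mouse 3 (12 tested), with DESeq2 (16 tested) and without the filter (24 tested), and 2 with the gate at 2 UMIs. In the main fit 7 of 7 immune genes were lower, with a median log2 fold change of -3.52, as were 4 of 4 blood genes. The other barcodes include those of the removed immune and blood clusters, so that these counts are a description. With the immune clusters left out, 2 immune genes were tested, of which 1 was higher and 0 were lower. In that fit 1 chemosensory gene was tested and it did not pass. The genes with the 10 smallest p-values upward were Muc20, Rcan2, Krt7, Moxd1, Prr18, Smbd1, Atp7b, Mal, Bsnd and Adgrb1, with log2 fold changes from 5.47 to 7.08.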

How the data were processed

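Single-cell RNA-seq counts of 4 mice were analysed. According to their notes and methods, the authors aligned reads with Cell Ranger 6.0.1 to GRCm38, with olfactory receptor gene ends redrawn, and each deposited matrix gives UMI counts by gene and barcode, not normalised. The authors integrated the mice, clustered all barcodes, removed immune, blood and high mitochondrial clusters, and kept cells with at least 1000 genes and at most 10% mitochondrial UMIs. Cell types were taken from that annotation. The deposited merged table and the numeric columns of the cell table were not used.

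UMIs were summed per type and mouse and scaled to 10000. Total UMIs per library ranged from 23157467 to 32382702, and 54 barcode sequences occurred in more than 1 library. Positions came from GENCODE M21 on GRCm38. Levels were compared between types and mice, not between genes. Members and gene lists were chosen with earlier results of these data known. Named were list members with at least 10 UMIs in Mv1, the 25 genes with the largest ratio, the 10 lowest genes and the 10 smallest p-values upward of each gate test. Any gene named outside this rule was chosen after its values were seen, and a few genes that the rule names are not reported here. Shares across depths were compared after thinning each cell to 1500 UMIs.

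Removed barcodes were summed by gate and mouse and tested with edgeR 4.0.16 (R 4.3.3; filterByExpr, TMM, quasi-likelihood test, mouse as block, Benjamini-Hochberg adjusted p below 0.05), leaving out receptor genes and the 4 gate genes. The block is the mouse, since both sums of a mouse come from 1 library. Standard errors are the fold change divided by the root of the F statistic. DESeq2 1.42.0 was an alternative. On simulated counts with 200 genes changed 4-fold, the Trpm5-gated fit of 9727 genes recovered 45.0% of raised and 24.0% of lowered genes with 3 false calls, and the ionocyte-gated fit of 11038 genes recovered 99.0% and 78.0% with 9. The simulated counts had a fixed dispersion and no difference between mice, so that these values may not hold for the real sums. Scrublet in scanpy 1.11.5 called 2 to 36 doublets per library, which is under 0.5% in 3 of 4 libraries and was taken as not working, so that the 4% of barcodes with the highest scores were left out as an alternative.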

Additional observations from a re-analysis of the deposited data

Results flagged for a closer look

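In 12 of 98 values tested (12.2%), 1 of the 4 mice lay apart from the other 3 by more than Dixon's 95% limit. Chance alone puts about 1 group in 20 past it. Mouse 3 was the high one for the ionocyte list sum (26.8 UMIs per 10000), Coch (13.9), Ascl3 (2.57), Moxd1 (1.99), Cftr (1.16) and Scnn1b (0.996), and 2 cells of that mouse held 215 and 89 ionocyte list UMIs. Without the cells that held 10 or more list UMIs, mouse 3 was at 1.91 for the ionocyte list sum, 0 for Coch and Ascl3 and 0.100 for Cftr. Mouse 2 was the high one for the immature neuron list sum (15.5), which was 2.70 there without the same kind of cells and those with 10 or more mature neuron UMIs. Among otherwise close mice, Atp6v1c1 was at 1.07 in mouse 4 against 0.533 to 0.581, Gfi1b at 1.66 in mouse 3 against 0.995 to 1.07, Sh2d6 at 7.78 in mouse 2 against 9.73 to 9.96, Ly6g6f at 4.36 in mouse 1 against 3.80 to 3.89 and Cdh6 at 1.66 in mouse 3 against 1.54 to 1.55.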

How the results depend on the processing

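With cells of at least 2000 genes, the share of Mv1 among retained cells was 0.382% and the log2 ratio of UMIs per Mv1 cell against Mv2 cells was 0.024 (exact sign-flip p = 0.875) in place of -0.50, because that limit leaves out shallow cells (44 Mv1 cells left). The 109 genes highest in Mv1 became 193 at 2-fold and 72 after thinning to 2000 UMIs (117 Mv1 cells left, 67 genes shared), and were 80 to 101 without each mouse in turn. Without the 9 Mv1 cells rich in ionocyte or neuron UMIs there were 110, of which 102 were among the 109. The ionocyte list gave 0 and the chemosensory list 19 to 21 under every alternative run. For the ionocyte list, 0 lies near the share called over all genes. For the Trpm5-gated removed barcodes, the 271 higher and 440 lower genes became 142 to 354 and 203 to 461 without each mouse in turn (171 and 203 without mouse 2, 142 and 227 without mouse 3). Higher were 142 of 9014 tested without the top 4% of Scrublet scores, and 70 of 4598 tested without the immune clusters. DESeq2 gave 375 higher and 134 lower of 13313 genes tested, where edgeR tested 9727. Of the DESeq2 calls 73.7% were higher against 38.1%, with the median log2 fold change at 0.93 against -0.34. These values are over different sets of genes, and the cause was not tested. Without the replicate block, the mouse, the counts were 287 and 300 for the Trpm5 gate and 2177 and 2531 for the ionocyte gate. The log2 fold change of Gfi1b in Trpm5-gated removed barcodes turned to -0.0050 (not called) without the top Scrublet scores. Of the values of the 20 chemosensory genes in the Trpm5 gate and the 10 leading genes of each gate, 420 kept their direction and call, 17 lost the call (Plcb2, Alox5ap or Dclk1 in each), and Hpgds gained one without mouse 4. The fit of Trpm5-gated barcodes with at least 1000 genes leaves out mouse 4, which had 2. The comparison of gates within Mv1 cells was not run, with 1 ionocyte-gated cell or fewer under every gate. Depth limits what 124 cells can show: a gene seen in 0 cells allows a share of up to 2.42% of cells with a UMI.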
